A study of Mus musculus with 10 samples.

Results

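The genes described here encode the pore-forming and auxiliary subunits of the voltage-gated sodium and calcium channels and the HCN channels. Members are the protein-coding mouse genes whose symbols begin with Scn and a digit, with Cacna1 or Cacna2d, with Cacnb1 to Cacnb4, or with Hcn and a digit; the Cacng genes are not among them. All 36 such genes of the annotation have a row among the 18453 rows of the count tables: 10 sodium channel alpha subunits, 4 sodium channel beta subunits, 10 calcium channel alpha1 subunits, 4 alpha2delta subunits, 4 calcium channel beta subunits and 4 HCN subunits. RNA was sequenced from 10 libraries of hippocampal area CA3 of C57BL/6J mice. In 5 libraries an adeno-associated virus (AAV) had delivered a scrambled short hairpin RNA (scramble) to CA3 on both sides, and in the other 5 it had delivered a hairpin against the transcription factor gene Mef2c (knockdown). The labels mark every library as male although the protocol speaks of both sexes, give no age and name no promoter for the hairpin. Whether each library is a different animal is not stated, and the p-values therefore describe the spread among libraries, which may be technical.

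Neurons fire when voltage-gated sodium channels open, and the alpha subunit of these channels forms the whole pore while the small beta subunits tune gating and act as adhesion molecules. Voltage-gated calcium channels are built from an alpha1 pore, a beta subunit inside the cell and an alpha2delta subunit outside it; they couple firing to transmitter release, to dendritic calcium signals and to transcription. HCN channels open on hyperpolarization, are gated by cyclic AMP and set the resting properties and rhythmic firing of hippocampal pyramidal cells.

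Library totals lay between 14701928 and 17798090 counts; the 5 knockdown libraries were the deeper ones. Mef2c itself stood at 166, 198, 176, 312 and 175 CPM (counts relative to the normalized library size) in scramble libraries 1 to 5. Knockdown libraries 1 to 4 held 111, 131, 121 and 163 CPM of it, and the library labelled knockdown 5 held 286 CPM, above 4 of the 5 scramble libraries. The difference did not pass (log2 fold change -0.34, SE 0.30, edgeR quasi-likelihood adjusted p = 0.489); it was -0.64 (adjusted p = 0.0877) without the library labelled knockdown 5 and -0.14 without scramble library 4. The directions below are therefore those of the labels. Of the fixed marker lists, the 4 CA3 pyramidal genes summed to 200 to 234 CPM in scramble and 184 to 263 CPM in knockdown libraries, and no marker of any list was at 0. Markers of neighbouring tissue were present too: 7 dentate granule genes summed to 410 to 519 and 353 to 584 CPM, 7 cortical layer genes to 268 to 375 and 207 to 436 CPM, and 5 choroid plexus genes to 265 to 3149 and 193 to 4458 CPM. The 5 general neuron markers summed to 3829 to 4099 CPM in scramble and 3678 to 4478 CPM in knockdown libraries, with 0 called by edgeR in either direction. Of 7 microglia markers 4 rose, C1qa, Tmem119, Csf1r and Aif1, where 4.66% of all genes were called higher, and the list's sum was 274 to 371 against 316 to 606 CPM. Of 8 interneuron markers, Gad2 and Erbb4 fell, where 7.61% of all genes were called lower, and the sum was 720 to 805 against 616 to 827 CPM. Of 5 endothelial markers Cldn5 and Ly6c1 rose, of 6 astrocyte markers Aldh1l1 rose and Slc1a2 fell, and of 2 markers of oligodendrocyte precursors Pdgfra fell. With the trend along length and GC content removed (as described for the channel genes), 0 of these marker genes were called in either direction. The part of these cell type differences in the channel results was not tested, and fewer cells of a type cannot be told apart from less RNA per cell.

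Promoter windows of 3 genes show how unlike the start regions of these genes are: those of Scn1a and Scn2a, sodium channel genes that fell, and that of Hcn2, the channel gene that rose. Each is the 250 bases before the first RefSeq start listed for the gene (GRCm38.p6, 5′ to 3′ on the gene's strand), with CG dinucleotides in capitals. The windows lie at chr2:66440838-66441087 (minus strand), chr2:65620519-65620768 (plus strand) and chr10:79716384-79716633 (plus strand).
Scn1a: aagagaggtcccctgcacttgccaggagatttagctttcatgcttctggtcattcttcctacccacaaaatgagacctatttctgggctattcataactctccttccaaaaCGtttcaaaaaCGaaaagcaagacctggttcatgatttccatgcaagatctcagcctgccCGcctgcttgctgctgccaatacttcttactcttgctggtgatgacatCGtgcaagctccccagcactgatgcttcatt
Scn2a: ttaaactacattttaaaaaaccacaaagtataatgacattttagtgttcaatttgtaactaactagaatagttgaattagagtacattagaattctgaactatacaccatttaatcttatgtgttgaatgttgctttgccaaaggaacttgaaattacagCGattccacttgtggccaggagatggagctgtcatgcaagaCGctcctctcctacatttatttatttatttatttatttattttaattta
Hcn2: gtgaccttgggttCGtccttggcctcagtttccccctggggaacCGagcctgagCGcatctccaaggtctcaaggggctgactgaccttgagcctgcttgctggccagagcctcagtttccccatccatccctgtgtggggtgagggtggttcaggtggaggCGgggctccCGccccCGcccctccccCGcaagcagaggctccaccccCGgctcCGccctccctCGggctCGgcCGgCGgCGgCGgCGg
The GC content of these windows was 46.8%, 29.6% and 70.4%, with 53.2% in the other window of Scn2a, beside a median of 52.4% over 32851 promoter windows of the same length. Windows were found for 26 of the 36 channel genes, 36 windows in all. The MEF2 consensus motif, searched on both strands, matched 0 of these 36 windows and 959 of all 32851 windows (2.92%); this says only that these letters are not in these windows. The GC box GGGCGG, also on both strands, was in 15 of the 36 windows and in 32.7% of all windows, and in the Hcn2 window shown but not in those of Scn1a and Scn2a. Other genes that fell had windows with it, such as Cacna2d1 (82.4% GC) and Cacna1b (72.0% GC), and without it, such as Cacna1e (52.0% GC) and Scn9a (54.4% GC). A link of GC content or of this motif to the direction of change was not tested.

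Levels of different genes were compared as CPM per kilobase of the longest annotated transcript. In the scramble libraries Cacnb3, a calcium channel beta subunit, stood at 75.3 ± 5.46 CPM per kb (SD, n = 5), followed by Scn3b (66.7 ± 4.93), Scn2b (54.8 ± 1.26), Hcn2 (53.3 ± 4.28), Scn8a (47.5 ± 2.66) and Cacnb1 (46.4 ± 3.35). The ranges of Cacnb3 and Scn3b overlapped, as did those of Scn2b and Hcn2. Those of Hcn2, Scn8a and Cacnb1 overlapped with each other too. Of the pore-forming subunits of sodium and calcium channels, Scn8a was followed by Scn2a (39.3 ± 3.41), Cacna1e (37.9 ± 2.61), Cacna1a (35.0 ± 2.24) and Cacna1h (31.6 ± 2.72). From Scn2a to Cacna1h, the range of each gene overlapped that of the next. At the low end Scn7a, Scn9a, Cacna2d4, Hcn4 and Cacna1f, all tested, had means between 0.141 and 0.493 CPM per kb.

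**Figure D1:**
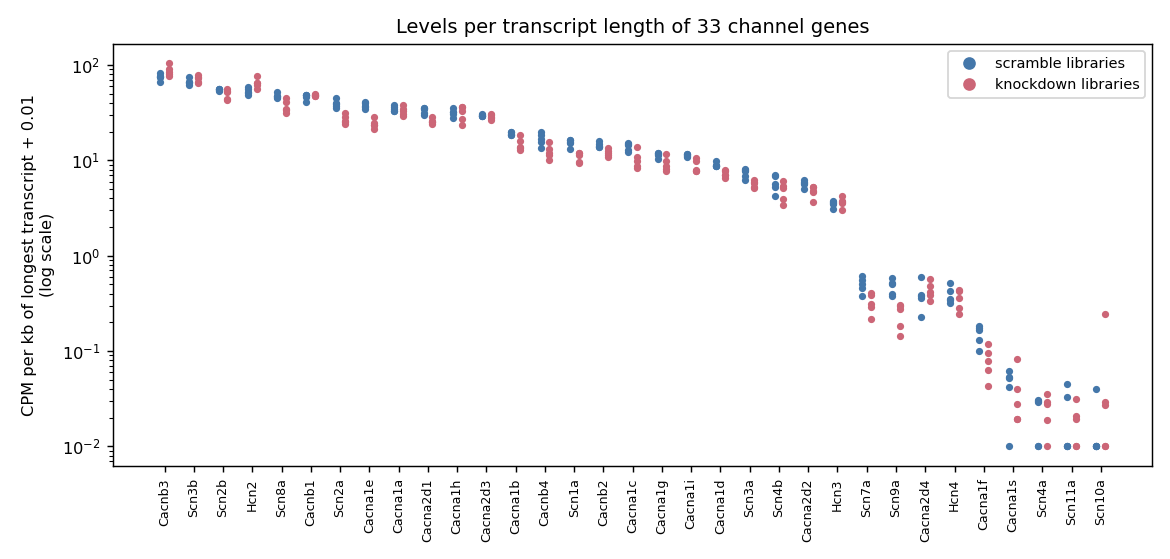
CPM per kilobase of the longest transcript, plus 0.01, on a log axis for 33 channel genes, ordered by their scramble mean; each point is a library. Cacnb3 lies at the left end at 75.3 CPM per kb in the scramble libraries, and the 4 genes at the right end, Cacna1s, Scn4a, Scn11a and Scn10a, were too low to test.

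Of the 36 genes, 32 passed the filter on low counts and were tested by edgeR among 14393 genes. In the knockdown libraries 14 of them fell and 1, Hcn2, rose, at an adjusted p below 0.05. That is 43.8% of the tested channel genes called lower, where the share of all genes called lower was 7.61% and the share called higher was 4.66%. The groups did not overlap in 10 channel genes with knockdown lower and in 0 with knockdown higher, and over all genes these shares were 6.04% and 3.30%. The median log2 fold change was -0.31 over the 32 channel genes and 0.02 over all genes tested. The 4 genes below the filter were Scn4a, Scn10a, Scn11a and Cacna1s, sodium and calcium channels of muscle and sensory neurons. Their counts were at most 7 per library, except 26 counts of Scn10a in the library labelled knockdown 5.

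**Figure D2:**
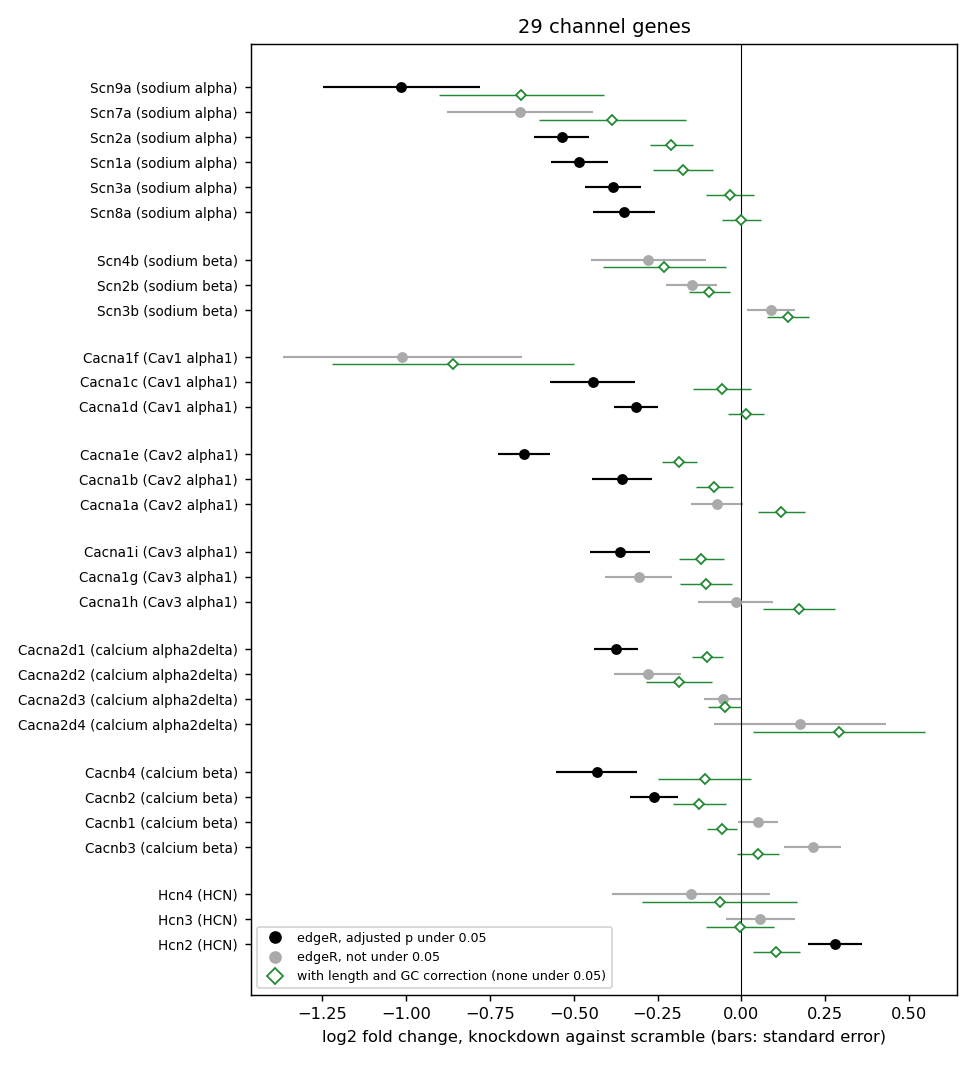
Log2 fold change of knockdown against scramble with its standard error for 29 tested channel genes, grouped by family. Black circles passed edgeR (13 lower, 1 higher), grey circles did not, and green diamonds are values corrected for transcript length and GC content, where 0 passed.

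Of the 14 genes that fell, 11 lay below the lowest scramble library in knockdown library 1, all 14 in each of knockdown libraries 2, 3 and 4, and 13 in the library labelled knockdown 5. These genes were called from the same libraries, so high counts follow largely from the call and are no separate evidence of the fall. Without the library labelled knockdown 5, edgeR called 16 channel genes lower, among them 13 of the 14, and 1 higher. Without knockdown libraries 2, 3 and 4 it called 0 channel genes and 0 of all genes. At an unadjusted edgeR p under 0.05, 11 channel genes were lower and 2 higher without these libraries. Of all genes, 2590 were under 0.05 in either direction. The median log2 fold change over the channel genes was -0.25 in that fit, 24 of them negative. Single genes differed: Cacna1e stayed at -0.62, whereas Cacna1i went from -0.36 to -0.14 and Cacna1g from -0.31 to -0.08. The lost calls therefore do not show that knockdown library 1 and the library labelled knockdown 5 lack the fall. As the fit pools these libraries, it does not show the fall in each of them either. Leaving out 1 library moved the count of genes called lower most to 7 without scramble library 2, 8 without scramble library 4, 9 without scramble library 5, and 8 without knockdown library 2 or 4. It was 17 without knockdown library 1. Scn1a, Scn2a, Scn3a, Cacna1d, Cacna1e and Cacna2d1 passed in each of the 10 fits that left out a library, and 8 called genes lost the call in at least 1 of them, among them Cacna1b in 5, Cacna1i in 4 and Scn9a in 1.

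The fold changes of the channel genes went with transcript length, and these are long transcripts: the 14 that fell had a median longest transcript of 9.70 kb, where the median of all genes tested was 3.48 kb. Among all genes with transcripts of 8 to 12 kb, 49.9% were called lower, and of the 12 channel genes in this class 9 were. Above 12 kb, 63.2% of all genes were called lower, Cacna1c and Cacna1e among them. Below 4 kb, 0 of 5 channel genes fell. The medians of the channel genes and of all genes were close in the class of 8 to 12 kb, with log2 fold changes of -0.37 and -0.32. In the class of 6 to 8 kb they stood at -0.38 over 5 channel genes and -0.19. To compare libraries, the mean log2 CPM of every gene across all libraries was first subtracted. A slope of the remainder along log2 transcript length was then taken, with GC content in the same fit. Such slopes are relative to the mean of all libraries, so opposite signs of the groups follow in part from this centring. In the scramble libraries they ran from 0.043 to 0.099. Knockdown libraries 1 to 5 stood at 0.045, -0.134, -0.070, -0.081 and -0.149, so knockdown library 1 lay in the scramble range. With the trend of each library along transcript length and GC content removed, edgeR called 0 of the 32 channel genes lower and 0 higher, and 0.959% of all genes lower and 0.695% higher. At an unadjusted edgeR p under 0.05, 5 of the 32 channel genes were lower and 1 higher with this correction. Of all 14393 genes, 2527 were under 0.05 in either direction, a similar share, so nothing particular to the channel genes is read from that count. The median log2 fold change of the channel genes was then -0.07. A change in these channels and a change in long transcripts in general cannot be told apart by the uncorrected values.

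**Figure D3:**
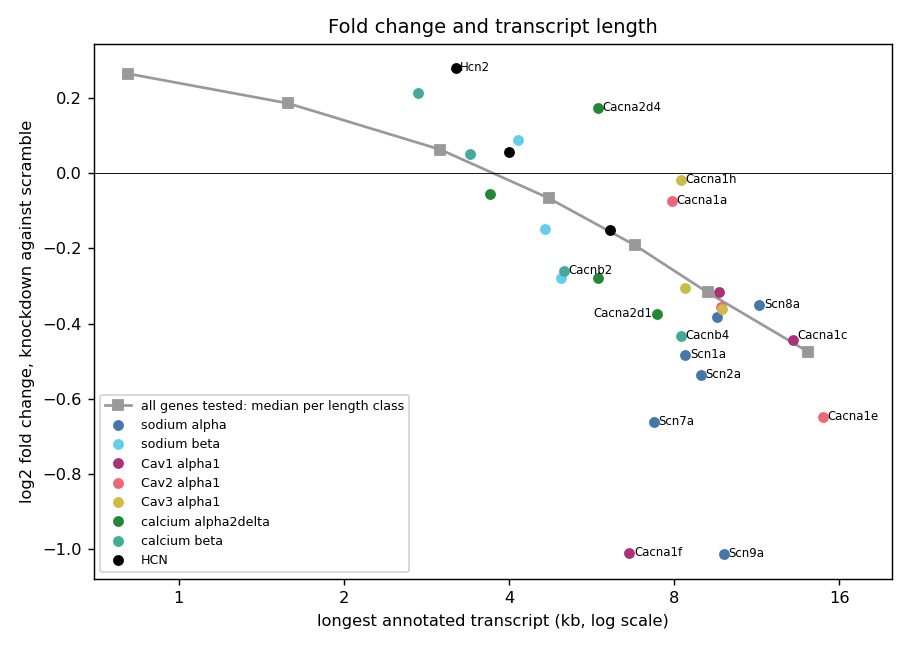
Log2 fold change against the longest annotated transcript (kb, log axis) for 29 tested channel genes, coloured by family, with the median of all genes in 7 length classes as grey squares. Many channel genes run along the falling grey line; Cacna2d4 (0.17), Hcn2 (0.28), Cacna1a and Cacna1h are among those above it, and Scn9a, Cacna1f and Scn7a among those below it.

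Among the sodium channel pores, 5 of the 7 alpha genes tested fell and 0 rose, beside 7.61% and 4.66% of all genes. The 5 have transcripts of 8 to 12 kb, a length at which 49.9% of all genes were called lower. With the length and GC correction 0 of the 7 were called. Scn2a, which carries much of the sodium current of young axons and axon initial segments of excitatory neurons, stood at 330, 398, 320, 352 and 357 CPM in scramble libraries 1 to 5. Knockdown libraries 1 to 5 held 280, 217, 224, 234 and 256 CPM of it. Every knockdown library, that labelled 5 included, was below every scramble library, and Scn2a fell by 31.1% (log2 fold change -0.54, SE 0.08, edgeR adjusted p = 0.00163). After the length and GC correction the log2 fold change was -0.21 (SE 0.065, adjusted p = 0.117). Scn1a, the main sodium channel of fast-spiking interneurons, stood at 110, 136, 130, 139 and 127 CPM in scramble and at 96.0, 81.5, 79.5, 101 and 101 CPM in knockdown libraries 1 to 5. The groups again did not overlap, and scramble library 1 came nearest to the knockdown libraries (log2 fold change -0.48, SE 0.09, edgeR adjusted p = 0.00436; -0.17, adjusted p = 0.333, corrected). Interneuron markers Gad2 (-0.32, SE 0.07) and Erbb4 (-0.80, SE 0.14) fell as well, with corrected values of -0.15 (adjusted p = 0.182) and -0.37 (adjusted p = 0.214), whereas the whole list of 8 had a median log2 fold change of 0.005.

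Scn3a, expressed most strongly before birth, stood at 73.8, 77.4, 59.9, 65.6 and 76.2 CPM in scramble libraries 1 to 5. It was lower in each knockdown library, at 55.4, 56.8, 49.7, 59.7 and 49.0 CPM, although knockdown library 4 lay just below scramble library 3 (log2 fold change -0.38, SE 0.08, edgeR adjusted p = 0.0125). After the correction Scn3a stood at -0.03 (edgeR adjusted p = 0.856). Scn8a, the channel of mature axon initial segments and nodes, had the highest CPM of the alpha genes at 513, 542, 527, 539 and 593 in the scramble libraries. Its values in knockdown libraries 1 to 5 were 520, 397, 472, 382 and 359 CPM, so knockdown library 1 lay among the scramble libraries. It passed with a log2 fold change of -0.35 (SE 0.09, edgeR adjusted p = 0.029), lost the call in 6 of the 10 fits without a library, and stood at -0.0009 after the correction (adjusted p = 0.995). Scn9a, best known from pain-sensing neurons, was low in CA3, at 5.58, 4.92, 5.04, 3.82 and 3.64 CPM in scramble and 2.63, 2.89, 1.32, 1.69 and 2.84 CPM in knockdown libraries. It fell by 50.5% with no overlap (log2 fold change -1.01, SE 0.23, edgeR adjusted p = 0.0162). Its corrected log2 fold change of -0.66 (SE 0.25, adjusted p = 0.184) was lower than those of the other 4 alpha genes that fell.

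Scn7a, an atypical sodium-sensing channel, was low too and did not pass, at 3.62 ± 0.668 CPM in scramble and 2.29 ± 0.565 CPM in knockdown libraries (log2 fold change -0.66, SE 0.22, edgeR adjusted p = 0.0601). Summed over the 10 alpha genes, the libraries stood at 1038 to 1166 CPM in scramble and at 959, 760, 830, 782 and 774 CPM in knockdown libraries 1 to 5, without overlap. In 1 stretch of chromosome 2 lie 5 alpha genes, Scn3a, Scn2a, Scn1a, Scn9a and Scn7a (65457118 to 66784914, GRCm38), of which 4 fell. Those 4 have transcripts of 8 to 12 kb, a class where 49.9% of all genes were called lower. After the correction 0 channel genes were called, and a part played by the shared location was not tested.

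The sodium channel beta genes Scn2b, Scn3b and Scn4b, whose proteins modulate the gating and the surface expression of the alpha subunits, did not pass. Scn2b averaged 255 ± 5.88 CPM in scramble and 230 ± 27.2 CPM in knockdown libraries (log2 fold change -0.15, SE 0.08, edgeR adjusted p = 0.2). Scn3b averaged 277 ± 20.4 and 294 ± 24.1 CPM (0.09, SE 0.07), and Scn4b 28.9 ± 5.61 and 23.8 ± 5.52 CPM (-0.28, SE 0.17). The groups overlapped in each of these 3 genes.

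Of the partners of sodium channels fixed as a list of 11, 5 fell and 0 rose, beside 7.61% of all genes called lower and 4.66% called higher. The 4 with the smallest p were Ank3 (log2 fold change -0.59, SE 0.08), the ankyrin that anchors sodium channels at the axon initial segment, Nrcam (-0.49, SE 0.08), an adhesion molecule there, Ank2 (-0.50, SE 0.08), another ankyrin of axons, and Cntn1 (-0.26, SE 0.06), an axonal adhesion molecule. Ank3 went from 571 ± 35.9 to 378 ± 47.6 CPM (edgeR adjusted p = 0.00113). The longest transcripts of these 4 run from 5.67 kb (Cntn1) and 6.28 kb (Nrcam) to 9.96 kb (Ank3) and 14.3 kb (Ank2), in classes where 6.39%, 22.7%, 49.9% and 63.2% of all genes were called lower. The other partner that fell has a transcript of 3.61 kb, in the class of 2 to 4 kb, where 1.43% of all genes were called lower. After the length and GC correction 2 of the 11 partners were called lower, beside 0.959% of all genes. They were Ank3 (-0.24, edgeR adjusted p = 0.022) and Nrcam (-0.28, edgeR adjusted p = 0.0174). The list was chosen with earlier results of these data known.

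The L-type calcium channel pores Cacna1c and Cacna1d, which link depolarization to gene transcription, both fell. Cacna1c stood at 199, 197, 170, 163 and 193 CPM in scramble libraries 1 to 5. In the knockdown libraries it stood at 183, 129, 142, 114 and 109 CPM, with library 1 inside the scramble range and the others below it (log2 fold change -0.44, SE 0.13, edgeR adjusted p = 0.0425). It lost the call in 9 of the 10 fits without a library, and its corrected log2 fold change was -0.06 (edgeR adjusted p = 0.788). Cacna1d stood at 83.6, 95.7, 84.3, 84.4 and 87.2 CPM in scramble and at 76.9, 68.1, 74.2, 67.2 and 63.5 CPM in knockdown libraries. All 5 knockdown libraries were below the scramble range (log2 fold change -0.31, SE 0.07, edgeR adjusted p = 0.0109), and the corrected value was 0.01. Cacna1f, the L-type channel of photoreceptors, averaged 0.933 ± 0.229 and 0.462 ± 0.194 CPM from 4 to 17 counts per library and did not pass (log2 fold change -1.01, SE 0.36, edgeR adjusted p = 0.0768).

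Of the presynaptic class, Cacna1e and Cacna1b fell and Cacna1a did not pass. Cacna1e, the pore of R-type channels, stood at 538, 603, 521, 558 and 609 CPM in scramble libraries 1 to 5 and at 421, 350, 367, 348 and 320 CPM in knockdown libraries 1 to 5. The groups lay well apart, and Cacna1e had the smallest p of the 32 genes (log2 fold change -0.65, SE 0.08, edgeR adjusted p = 0.000654). Its transcript of 14.9 kb is the longest of the 36, and after the correction the log2 fold change was -0.19 (SE 0.05, adjusted p = 0.0853). Cacna1b, the pore of N-type channels, stood at 180, 179, 194, 182 and 191 CPM in scramble and 181, 134, 154, 124 and 131 CPM in knockdown libraries. Knockdown library 1 lay in the scramble range and the others below it (log2 fold change -0.36, SE 0.09, edgeR adjusted p = 0.0235). After the correction Cacna1b stood at -0.08 (edgeR adjusted p = 0.499). Cacna1a, the pore of P/Q-type channels, stood at 275, 259, 264, 304 and 285 CPM in scramble and at 276, 263, 305, 232 and 243 CPM in knockdown libraries. The groups overlapped (log2 fold change -0.07, SE 0.08, edgeR adjusted p = 0.555), and the corrected value was 0.12.

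T-type channels open near rest and support burst firing. Cacna1i, 1 of their 3 pores, stood at 111, 107, 113, 115 and 106 CPM in scramble and at 104, 75.5, 75.9, 78.3 and 97.0 CPM in knockdown libraries. It fell without overlap, by little in library 1 and in the library labelled knockdown 5 (log2 fold change -0.36, SE 0.09, edgeR adjusted p = 0.0214). After the correction Cacna1i stood at -0.12 (edgeR adjusted p = 0.377). Cacna1g did not pass (-0.31, SE 0.10, edgeR adjusted p = 0.0588). Cacna1h, the highest of the 3 per length, stood at 264, 230, 263, 251.8 and 292 CPM in scramble and 298, 270, 299, 224 and 195 CPM in knockdown libraries, from above to below the scramble range (log2 fold change -0.02, SE 0.11, edgeR adjusted p = 0.937). Its sign turned positive with upper quartile scaling (0.003).

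Auxiliary calcium channel subunits divided by gene. Cacna2d1, the alpha2delta subunit bound by gabapentin, stood at 234, 265, 223, 265 and 254 CPM in scramble and 211, 189, 187, 190 and 181 CPM in knockdown libraries. The groups did not overlap (log2 fold change -0.37, SE 0.07, edgeR adjusted p = 0.00422; corrected -0.10). The other alpha2delta genes did not pass: Cacna2d2 stood at -0.28 (SE 0.10), Cacna2d3 at -0.06 (SE 0.06) and Cacna2d4 at 0.17 (SE 0.26) on the log2 scale. Of the beta subunits, which bring alpha1 pores to the membrane, Cacnb2 and Cacnb4 fell. Cacnb2 stood at 72.0, 69.7, 73.9, 69.2 and 79.6 CPM in scramble and 68.5, 60.6, 63.3, 57.2 and 54.6 CPM in knockdown libraries, just apart (log2 fold change -0.26, SE 0.07, edgeR adjusted p = 0.0309; 0.0606 with a replicate block). Cacnb4 stood at 128, 152, 112, 162 and 137 CPM in scramble and at 83.2, 98.3, 93.8, 108 and 129 CPM in knockdown libraries, where the library labelled knockdown 5 overlapped the scramble range (log2 fold change -0.43, SE 0.12, edgeR adjusted p = 0.0398). Both lost the call in 7 of the 10 fits without a library, and the corrected values were -0.13 for Cacnb2 and -0.11 for Cacnb4. Reads of Cacnb4 are uncertain, since 15.99% of its exon bases are also covered by A430018G15Rik on the opposite strand and it is not given whether counting used strand; for Cacnb2 this share was 7.32% and for Cacna1d 4.67%.

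Cacnb3, the beta subunit with the highest level per length, stood at 207, 183, 210, 224 and 205 CPM in scramble and at 232, 249, 207, 218 and 286 CPM in knockdown libraries. It overlapped and did not pass (log2 fold change 0.21, SE 0.08, edgeR adjusted p = 0.11), nor did Cacnb1 (0.05, SE 0.06). Among 24 listed partners of calcium channels, 23 were tested, 3 fell and 0 rose, where 7.61% of all genes were called lower, so nothing particular to this list is read from the count. The 3 were Rims1 (-0.37, SE 0.08), the active zone scaffold that tethers calcium channels near vesicles, Akap5 (-0.44, SE 0.09), the kinase anchor of L-type channels, and Stac3 (-0.58, SE 0.17), an adaptor of the muscle L-type channel, which was low here at 4.60 ± 0.564 and 3.06 ± 0.51 CPM. Stac3 also passed edgeR after the correction (-0.76, adjusted p = 0.0407). The median log2 fold change of the 23 was 0.06.

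**Figure D4:**
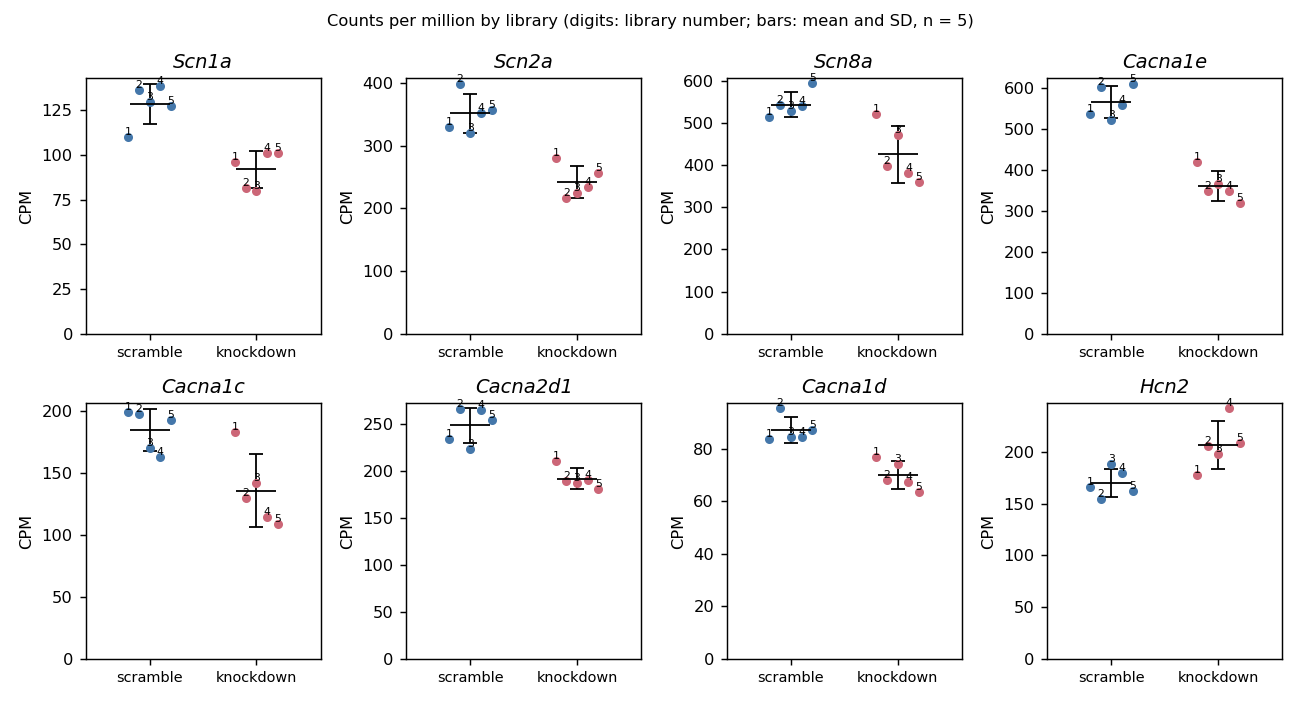
CPM in each library for 8 channel genes, with the library number beside each point and the mean and SD (n = 5) as bars; axes start at 0. In Scn1a, Scn2a, Cacna1e, Cacna2d1 and Cacna1d the 5 knockdown libraries lie below the 5 scramble libraries; in Scn8a and Cacna1c knockdown library 1 lies among the scramble libraries, and in Hcn2 the knockdown libraries are higher on average and overlap.

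Among the HCN genes, Hcn2 rose. Hcn2, a subunit strongly gated by cyclic AMP, stood at 167, 154, 188, 180 and 162 CPM in scramble and at 178, 206, 198, 243 and 209 CPM in knockdown libraries. It rose by 21.3% (log2 fold change 0.28, SE 0.08, edgeR adjusted p = 0.0403), with knockdown library 1 inside the scramble range, and lost the call in 7 of the 10 fits without a library. Its transcript is short for these genes, 3.20 kb at 65.4% GC, and after the length and GC correction the log2 fold change was 0.10 (SE 0.07, adjusted p = 0.49). Hcn3 (0.06, SE 0.10) and Hcn4 (-0.15, SE 0.23), the latter best known from the sinus node, did not pass, and 17.1% of the exon bases of Hcn3 are shared with Pklr on the opposite strand. Of 6 listed HCN partners, 1 fell and 0 rose, where 7.61% of all genes were called lower. Nothing particular to this list is read from that count. The partner that fell was Pex5l, which encodes the trafficking subunit TRIP8b (log2 fold change -0.38, SE 0.09, edgeR adjusted p = 0.0142). Its groups did not overlap, as in 6.04% of all genes with knockdown lower. Its corrected log2 fold change was -0.32 (adjusted p = 0.0579).

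Ratios of related genes within a library need no scaling between libraries. P-values were adjusted over 5 ratios, and 0 of the 4 described here passed with all libraries. The log2 ratio of Cacna1a to Cacna1b was 0.58 ± 0.107 and 0.87 ± 0.151 (difference 0.29, exact two-sided permutation p = 0.0238, 0.0595 after Benjamini-Hochberg adjustment), higher in knockdown libraries 2 to 5 than in any scramble library. Without knockdown library 1, Cacna1a to Cacna1b (difference 0.36, adjusted exact permutation p = 0.0198) and Cacna1c to Cacna1d (-0.23, adjusted exact permutation p = 0.0265) passed. Among knockdown libraries, that library had the lowest Cacna1a to Cacna1b and the highest Cacna1c to Cacna1d ratio, so leaving it out enlarged both differences. With corrected counts and all libraries neither passed (adjusted exact permutation p = 0.198 and 0.595). Scn1a to Scn2a (difference 0.05, exact permutation p = 0.563), Scn8a to Scn2a (0.18, exact permutation p = 0.159) and Cacna1c to Cacna1d (-0.15, exact permutation p = 0.183) overlapped between the groups. With corrected counts the differences were 0.19 for Cacna1a to Cacna1b, -0.07 for Cacna1c to Cacna1d, 0.21 for Scn8a to Scn2a and 0.03 for Scn1a to Scn2a. Leaving out knockdown library 3 moved Scn8a to Scn2a to 0.11, and leaving out knockdown library 4 moved Scn1a to Scn2a to 0.004.

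**Figure D5:**
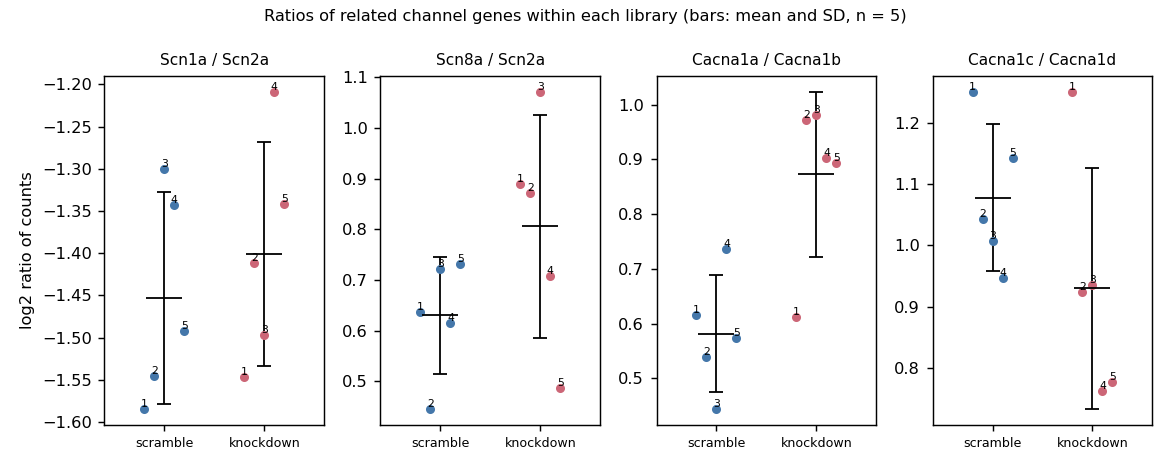
Log2 ratios of counts of 4 pairs of related channel genes in each library, with library numbers and mean and SD (n = 5). Cacna1a to Cacna1b is higher in 4 of the 5 knockdown libraries than in any scramble library, and the other 3 ratios overlap.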

How the data were processed

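Gene counts of 10 libraries were analysed. Per the submitters' processing notes, HISAT2, featureCounts and mm10 were used; for versions, settings, strand use and annotation the entry is "not given in the sources used here". What the authors deposited are whole-number counts per gene without normalization, as the values show. Symbols, coordinates and the longest transcript came from GENCODE M21 (GRCm38, the assembly of mm10), which matched 18445 of 18453 rows; promoter windows came from RefSeq (GRCm38.p6). Groups and replicate numbers came from the titles, since 1 treatment tag is misspelt. Libraries of a group differed by more than sampling noise (chi-square over its degrees of freedom 3.46 to 33.1), so each counted as 1 replicate.

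In edgeR 4.0.16 (R 4.3.3), low genes were removed by filterByExpr, TMM factors were computed, and knockdown was compared with scramble by the quasi-likelihood test with robust estimates, with Benjamini-Hochberg adjustment over 14393 genes at a threshold of 0.05. The standard error is the log2 fold change over the square root of F, and CPM uses the TMM-scaled library size. For the length and GC correction, natural splines (5 degrees of freedom each) of log2 length and of GC content were fitted to each library's log2 CPM (prior count 2) centred per gene, and entered as offsets. Ratios used counts plus 0.5 and exact permutation over all assignments of the libraries. Alternatives were other normalizations and filters, DESeq2 1.42.0, limma-voom (limma 3.58.1), a replicate block, the correction and left-out libraries; RefSeq-matched transcripts in the correction were added after seeing the data. The members and lists were chosen with earlier results of these data known. Values per library are given for called members, for the member with the highest level per length in each family and for genes of the ratios; called partners are named, at most the 4 with the smallest p per list. Some members are not reported here by name, though counts over all members include them. The called marker genes were named after their values were seen. The scripts were tested on simulated data.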

Additional observations from a re-analysis of the deposited data

Results flagged for a closer look

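In groups of 5 libraries, a value was taken for a closer look when its gap to the nearest other library exceeded 0.71 of the group's range; chance alone picks about 1 group in 20 this way. Over channel genes, ratios and Mef2c, 77 groups were screened, so a few picks are what chance gives; 3 are described here. Scn10a, a sodium channel of sensory neurons, stood at 1.57 CPM (26 counts) in the library labelled knockdown 5, where the other 9 libraries had 0 to 3 counts. Knockdown library 1 had a log2 ratio of Cacna1a to Cacna1b of 0.61, below the 0.89 to 0.98 of the other knockdown libraries. Scramble library 4 had 312 CPM of Mef2c, above the 166 to 198 CPM of the other scramble libraries.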

How the results depend on the processing

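With other normalizations, filters and tools and with the replicate block, 13 to 18 channel genes were lower and 1 higher; limma-voom called 3402 of all genes. The replicate numbers were not shown to pair the libraries (correlations of same-numbered libraries -0.114 to 0.403; 1 of 5 correlated best with its own number). The replicate block called 14 channel genes lower, 13 of them among the 14, and 1313 of all genes. The length and GC correction left 0 channel genes lower and 0 higher, with 238 of all genes called, 205 with the replicate block added and 276 with RefSeq-matched transcripts, an alternative chosen after seeing the data. In these 3 fits, in that order, log2 fold changes turned to 0.1183, 0.1112 and 0.1159 for Cacna1a, 0.0136, 0.0137 and 0.0096 for Cacna1d, 0.1707, 0.1577 and 0.1658 for Cacna1h, and -0.0593, -0.0581 and -0.0474 for Cacnb1; Hcn3 turned to -0.0046 and -0.0061 in the first and the second, and Scn8a to 0.0184 in the third. Beyond the trend along length and GC content that these fits remove, the cause was not tested.

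Cacna1h was 0.0026 with upper quartile scaling. Without scramble library 4 and the library labelled knockdown 5, 10 channel genes were lower and 0 higher, and 1029 genes were called. Cacna1h stood at 0.0535 and Mef2c passed at -0.4465 (edgeR adjusted p = 0.0274) in that fit. The libraries left out held the highest Mef2c of their groups (312 and 286 CPM), so this Mef2c result is no independent check of the labels. Without knockdown libraries 2, 3 and 4, edgeR called 0 channel genes lower, 0 higher and 0 of all genes (2590 at an unadjusted p under 0.05) and Cacna2d3 was 0.01. Leaving out 1 library at a time gave 7 to 17 channel genes lower, 0 to 2 higher and 631 to 3305 genes called. It gave log2 fold changes of -0.0811 to 0.0699 for Cacna1h and -0.0005 to 0.1202 for Hcn3, and ratio differences of 0.2564 to 0.356 for Cacna1a to Cacna1b and -0.228 to -0.105 for Cacna1c to Cacna1d. Fewer libraries lower what these tests can call, and for the lowest genes, such as Cacna1f, depth limits the precision.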
